A study of Mus musculus with 2 samples.

Results

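The cells described here are 242 cells of the wild-type mouse small intestine that held at least 1 unique molecular identifier (UMI, 1 captured RNA molecule) of Cd209a and none of Plac8. They were chosen from the 3016 wild-type cells with 200 or more detected genes and 10% or fewer mitochondrial UMIs, among 5628 such cells in the series, so they made up 8.02% of the wild-type cells (exact Clopper-Pearson 95% interval 7.08 to 9.05%). The series holds 1 single-cell RNA library of each genotype, made with the 10x Genomics 3' v2 chemistry. The wild-type library came from male C57BL/6J mice bought from Janvier, and its cell barcodes carry 2 suffixes, called lanes here. The other came from CCR2-/- mice of a Jackson Laboratory line bred in-house. In both, 3 to 4 small intestines were freed of mucus and epithelium, digested with Liberase TL, pooled and sorted for live CD45+ cells that were CD11b+, MHCII+ and CD64+ and negative for CD3, TCRb, B220, SiglecF, Ly6C and Ly6G. Genotype, animal source and library are the same split and cannot be told apart, and the pooling hides the spread between animals. With 1 library per genotype no test was possible. All intervals below cover counting error only, not the spread between cells or animals. The 2 lanes belong to 1 deposited sample and were not read as replicates.

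Cd209a encodes a mouse C-type lectin receptor of the family that includes human DC-SIGN, and it is widely used as a marker of type 2 conventional and monocyte-derived dendritic cells. Flt3 (the receptor of a dendritic growth factor), Zbtb46 (a transcription factor of conventional dendritic cells), Ccr7 (the chemokine receptor of migrating dendritic cells) and Dpp4 (CD26, a surface peptidase) are dendritic markers. C1qa (a chain of complement C1q), Fcgr1 (CD64, the high-affinity IgG receptor), Mertk (a receptor for the uptake of dead cells) and Adgre1 (F4/80) mark intestinal macrophages. CD64 was part of the sort, so Fcgr1 was also selected at the protein level. Members and comparison cells had all passed the same CD11b+, MHCII+ and CD64+ gate. The levels of both marker sets therefore describe cells inside that gate, not Cd209a-positive cells of the intestine at large.

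Cd209a lies on the minus strand of chromosome 8 in the mm10 annotation (positions 3743397 to 3748984), in a cluster with Cd209e, Cd209d, Cd209b and other members of the family. The promoter windows of Cd209a and of Cd209b, the other gene of the family with the most UMIs in these cells, are given here because they share a run of 17 bases, in capitals. The windows are from RefSeq (build GRCm38.p6, minus strand), from 250 bases before to 50 bases after the gene start, at chr8:3748935-3749234 for Cd209a and chr8:3926792-3927091 for Cd209b.
Cd209a: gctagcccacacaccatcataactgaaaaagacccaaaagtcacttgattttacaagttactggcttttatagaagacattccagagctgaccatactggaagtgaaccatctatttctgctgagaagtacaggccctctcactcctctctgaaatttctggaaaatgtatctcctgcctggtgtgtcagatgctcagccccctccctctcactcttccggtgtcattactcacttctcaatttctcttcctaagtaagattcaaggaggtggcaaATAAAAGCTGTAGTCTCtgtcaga
Cd209b: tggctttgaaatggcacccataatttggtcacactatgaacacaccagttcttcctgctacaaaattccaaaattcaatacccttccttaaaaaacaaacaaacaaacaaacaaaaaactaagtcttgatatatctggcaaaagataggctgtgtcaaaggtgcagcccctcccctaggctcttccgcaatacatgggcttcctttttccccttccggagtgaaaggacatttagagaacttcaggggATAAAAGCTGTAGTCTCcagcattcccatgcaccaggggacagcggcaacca
The run, ATAAAAGCTGTAGTCTC, covers bases 277 to 293 of the Cd209a window and 249 to 265 of the Cd209b window. Searched on both strands, it was present in 2 of 32851 windows of this length (0.00609%), those of Cd209a and Cd209b. It was picked after the sequences had been seen, as the longest run these 2 windows share, so both hits were set in advance. In the Cd209a window it lies after the gene start. It is a description of these letters, not of a binding site. The 3' ends, which this chemistry counts, also share short runs: over the last 500 bases of the annotated transcripts, the longest run that Cd209b shares exactly with Cd209a is 18 bases, against 20 for Cd209d, 17 for Cd209c and 10 for Cd209e. Whether reads of these genes were divided correctly was not tested.

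The 2 rule genes are given as a description only. Most members held a single Cd209a UMI (170 cells, 70.2%), 41 held 2 and 31 held 3 or more, with 19 as the highest number in a cell and 412 UMIs in all. Just outside the rule were 62 cells with Cd209a and a single Plac8 UMI, and another 93 cells held Cd209a with 2 or more Plac8 UMIs. The share was 7.68% in lane 1 (162 of 2109 cells; 6.58 to 8.90%) and 8.82% in lane 2 (80 of 907; 7.06 to 10.9%), so the lanes did not differ beyond their intervals. Cd209a was found in 11.2% of Plac8-zero cells and in 18.0% of Plac8-positive cells (155 of 859). The latter were also sequenced more deeply: the members had a median of 6788 UMIs, and the 155 cells with both genes 8699. Among the 18 cells of the plasma cell-like cluster (led by Jchain and Mzb1, the antibody joining chain and its chaperone), which should lack Cd209a, 1 held a UMI (5.56%, interval 0.141 to 27.3%, median 9939 UMIs). That interval holds the 13.2% over all filtered wild-type cells (median 6129 UMIs), so with these few cells a share of free RNA among the single Cd209a UMIs could not be measured. Of the deposited barcodes, 5 were in both lanes, 1 of them a member's, and 6 were also in the CCR2-/- library.

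The comparison cells held neither Cd209a nor Plac8. There were 1915, with a median depth of 5290 UMIs, and from them 3 cells per member, nearest in total UMIs within the same lane, were taken as the 726 matched cells (median 6785 UMIs). Levels are UMIs summed over the cells of a group per 1000000 UMIs (CPM) with exact Poisson intervals. Ratios of the 8 rule genes and their sums are log2 ratios of the members' CPM to that of the matched cells, with conditional binomial intervals.

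Inside the CD64+ sort gate, the members carried the macrophage genes at nearly the level of their matched cells. Of the dendritic genes Dpp4 alone was found in more than 5 members. Dpp4, at 44.6 CPM (35.4 to 55.6; 80 UMIs) in members and 31.6 (27.01 to 36.7; 169 UMIs) in matched cells, was higher by 0.50 on the log2 scale (0.10 to 0.89). In lane 1 it was at 50.3 against 32.7 CPM and in lane 2 at 33.4 against 29.3 CPM. Both lanes gave a higher level in members, the second by less. With a pseudocount of 1 CPM, the Dpp4 ratio was 0.15 for members with exactly 1 Cd209a UMI and 1.24 for those with at least 2, each against its own matched cells. Dpp4 was found in 25.6% of members and 18.0% of matched cells.

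Flt3 gave 6 UMIs in 5 members (3.35 CPM, 1.23 to 7.29) and 2 UMIs in 2 matched cells (0.374 CPM, 0.0453 to 1.35), a log2 ratio of 3.16 with an interval of 0.68 to 6.50. The 5 members are 2.07% of them (0.674 to 4.76%). In the plasma cell-like cluster 2 of 18 cells held Flt3 (11.1%, 1.38 to 34.7%), an interval that holds the members' share. These few cells cannot set a level of free RNA for Flt3, and the part of free RNA in members was not tested. Zbtb46 gave no UMI in members, which allows up to 1.67 CPM, and 3 UMIs in matched cells. Ccr7 was also at 0 in members and gave 2 UMIs in matched cells. For these 2 genes neither group passed the 3 counts that set the floor, and no fold is given. The 4 dendritic genes summed to 48.0 CPM in members and 32.9 CPM in matched cells (log2 ratio 0.54, 0.16 to 0.92; 0.23, -0.57 to 0.99 in lane 2), of which all but 6 of 86 UMIs and 7 of 176 UMIs were Dpp4. No dendritic gene of the 4 was found in 72.7% of members and 81.1% of matched cells.

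C1qa was detected in all 242 members, so that up to 1.24% could lack it by counting, and in 725 of 726 matched cells. Its level was 5184 CPM (5079 to 5291) in members and 5668 (5604 to 5732) in matched cells, lower by a log2 ratio of -0.13 (-0.16 to -0.10). Lane 1 gave 4835 against 5179 CPM and lane 2 gave 5881 against 6652 CPM, so that both lanes put the members slightly lower, while lanes differed from each other by more than the groups. Fcgr1 stood at 212 against 218 CPM (log2 ratio -0.04, -0.21 to 0.13), with 197 against 204 CPM in lane 1 and 241 against 246 CPM in lane 2. Mertk stood at 35.2 against 37.8 CPM (-0.10, -0.53 to 0.31), and its lanes had opposite signs (-0.33 and 0.42). The same held for Adgre1, at 422 against 405 CPM (0.06, -0.06 to 0.18; lanes -0.08 and 0.31). For these 3 genes the intervals include 0. The macrophage sum was 5853 CPM in members and 6329 CPM in matched cells (log2 ratio -0.11, -0.14 to -0.08), and C1qa supplied most of it. Thinned to 2000 UMIs against all comparison cells, the ratio was -0.0027 (-0.062 to 0.056).

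**Figure D1:**
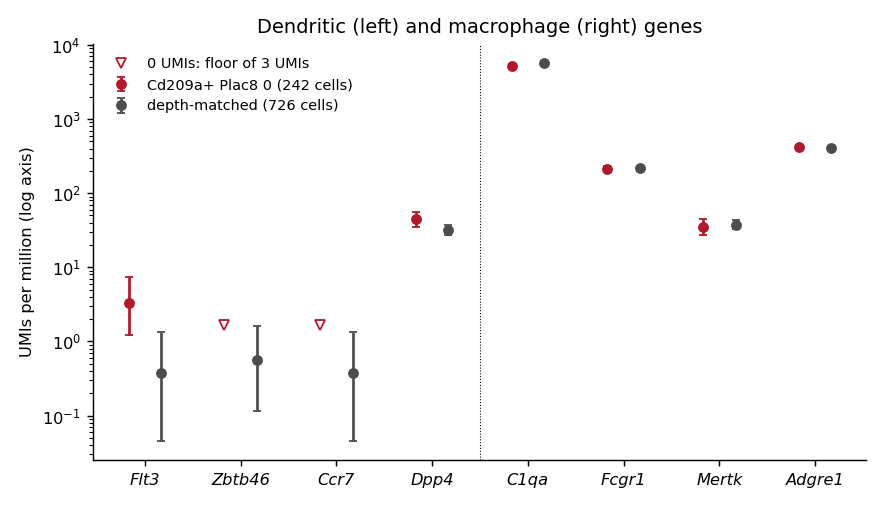
CPM (vertical axis, log scale) of the 4 dendritic and 4 macrophage genes in the 242 members (red) and 726 matched cells (grey); points are sums over cells, bars are exact Poisson 95% intervals, and an open triangle is the floor of 3 UMIs for a gene at 0. C1qa, Fcgr1, Mertk and Adgre1 lie close together in members and matched cells, while Flt3, Zbtb46 and Ccr7 rest on 0 to 6 UMIs in each group.

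Cell by cell, 224 members (92.6%) and 678 matched cells (93.4%) held at least 2 of the 4 macrophage genes, and 154 members (63.6%) and 482 matched cells (66.4%) held at least 3. The summed C1q level (C1qa, C1qb and C1qc) ran from 2.502 to 279 UMIs per 10000 with a median of 117 in members, and from 1.86 to 303 with a median of 131 in matched cells. The ranges overlapped over nearly their whole length. The median of the plasma cell-like cells, 0.126% of UMIs, was reached or undercut by 2 members (0.826%), 8 matched cells (1.10%) and 13 of the cells with both Cd209a and Plac8 (8.39%, 4.54 to 13.9%).

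**Figure D2:**
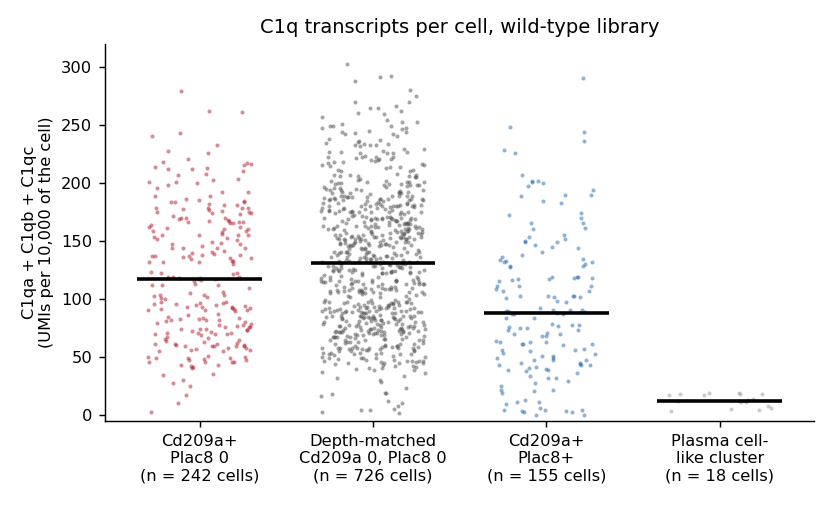
C1qa, C1qb and C1qc UMIs per 10000 UMIs of each cell (vertical axis), for members, matched cells, cells with both Cd209a and Plac8 and the plasma cell-like cells; each point is a cell and the line is the group median. Members and matched cells cover the same range, with medians of 117 and 131, and 2 members lie at or below the plasma cell-like median.

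These 2 members differed in depth. The first (cell A) held the most Cd209a of any member, 19 UMIs, with 4 C1q UMIs among 15987, 8 UMIs of Ccl17 (a chemokine of dendritic cells), 3 of Bcl11a (a transcription factor of dendritic and B cells) and none of Flt3. It was in a cluster led by histone and mitosis genes. The other (cell K) held 1 Cd209a UMI and 2 C1qa UMIs among only 1959. Of the 4 members with 12 or more Cd209a UMIs, cells A, B and C had a summed C1q level below the members' median of 117 UMIs per 10000. Cell B was at 49.96 per 10000, and cell C at 25.23 per 10000 with 13 UMIs of C1qa among 11097. High Cd209a did not always come with low C1q, as cell D was at 177.2 per 10000 with 115 UMIs of C1qa among 14726. Of the 5 Flt3-positive members, 4 had 10 to 49 C1qa UMIs with a single Cd209a UMI, and C1q made up 0.553 to 1.44% of their UMIs. The fifth (cell E) held 6 Cd209a, 2 Flt3, 20 Ccr2 and 21 C1qa UMIs.

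Thinning each cell to 2000 UMIs, which left out 10 members and 30 matched cells, gave like shares. C1qa was then found in 98.7% of members and 99.0% of matched cells, beside 55.6% of plasma cell-like cells, and Adgre1 in 57.3% and 54.9%, beside 5.56%. Fcgr1 was found in 33.2% and 31.0% after thinning, where the unthinned shares were 62.0% and 66.3%. Dpp4 was found in 9.05% and 6.03%.

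Across all 4947 genes with a mean of at least 20 CPM, the members differed little from matched cells. Here the log2 ratio is of CPM plus a pseudocount of 1, which understates low genes, and Cd209a and Plac8 are left out. The median was 0.00086 and 90% of genes lay between -0.36 and 0.36 (the 5th and 95th percentiles), and 54.4% had the same sign in both lanes. At least 2-fold higher in members were 4 genes (0.0809% of those compared), and at least 2-fold lower 9 (0.182%). In both lanes 1 gene (0.0202%) and 2 genes (0.0404%) passed that fold. Matched cells are cells without a captured Cd209a UMI, and after thinning only 40.1% of members still showed one. For the 72 members with at least 2 Cd209a UMIs, against 216 matched cells, 44 of 4857 genes were higher and 53 lower. That smaller group has more counting error.

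Of the 4 higher genes Cd209b, a lectin best known from marginal zone macrophages of the spleen, was found in many cells of both lanes. It gave 98 UMIs in 49 members (54.7 CPM) and 124 UMIs in 72 matched cells (23.2 CPM), a log2 ratio of 1.20, and was at 41.1 against 21.8 CPM in lane 1 and 81.9 against 25.9 CPM in lane 2. No member held more than 8 of its UMIs. After thinning it was found in 10.3% of members and 3.02% of matched cells, and in none of the 18 plasma cell-like cells, which allows up to 16.7%. Lyz1, a lysozyme of Paneth cells, was higher by 1.40 and was the gene past 2-fold in both lanes (1.34 and 1.54), but 67 of its 173 UMIs came from 1 member, and among cells with Ccr2 at 0 its ratio was 0.019. Hist1h1b, a linker histone of dividing cells, was higher by 1.81 with 46 of 76 UMIs in 1 member. Itgb7, the integrin chain of gut-homing leukocytes, was higher by 1.10 on 58 UMIs in 41 members, with lanes at 1.60 and 0.16.

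Below the matched cells, Timp2 (an inhibitor of matrix metalloproteinases) gave 23 UMIs in 19 members against 215 in 107 matched cells, or 12.8 against 40.2 CPM. Its log2 ratio was -1.57, the same in lane 1 and -1.59 in lane 2. Ccl5, a chemokine for T cells, was at 16.7 against 54.2 CPM, a log2 ratio of -1.64 (lanes -1.49 and -1.87). These were the 2 genes past 2-fold in both lanes. The other lower genes drew many of their UMIs from few matched cells: 1 cell held 15450 haemoglobin UMIs of its 16121 and set Hbb-bs (-7.43), Hbb-bt (-6.78), Hba-a1 and Hba-a2, 1 held 2321 of the 9128 UMIs of Jchain (-1.93), and 1 held 249 of the 547 UMIs of Ly6a (-1.25). Jchain also rested on 1 member, of the plasma cell-like cluster, which held 679 of the members' 800 UMIs: the lanes gave -0.64 and -5.88, and the ratio without that member was -4.64. Mzb1 (-1.39) had opposite signs in the lanes.

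The next genes with 1 sign in both lanes were under 2-fold. Higher in members were Fam160b1 (0.86), Rsad2 (0.79, an interferon-induced antiviral enzyme), S100a11 (0.72), Fbrs (0.72), Ubl7 (0.71) and Il15 (0.70, a cytokine that maintains lymphocytes). Lower were Pla2g2d (-0.93, a secreted phospholipase), Pafah1b2 (-0.92), Cxcl9 (-0.91, an interferon-induced chemokine) and Slc40a1 (-0.84, the iron exporter ferroportin). All were picked as the most extreme ratios of the genes compared. Over the other settings Fam160b1 ran from 0.41 to 1.27, Rsad2 from 0.19 to 1.26 and S100a11 from 0.13 to 1.22. Fbrs ran from 0.24 to 0.96, Ubl7 from 0.08 to 1.03 and Il15 from 0.22 to 1.26. Pla2g2d ran from -1.19 to -0.58, Pafah1b2 from -1.07 to -0.62, Cxcl9 from -1.62 to -0.43 and Slc40a1 from -1.88 to -0.53.

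**Figure D3:**
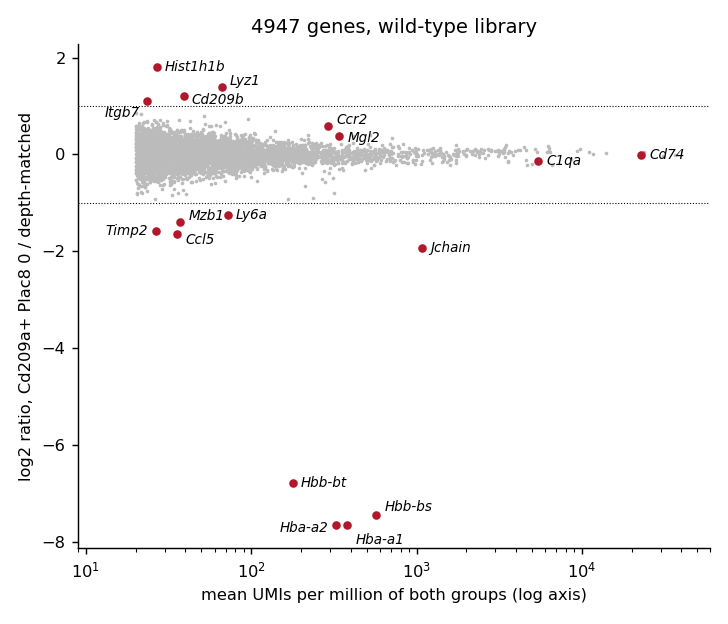
Log2 ratio of members to matched cells (vertical axis, pseudocount of 1 CPM) against the mean CPM of both groups (log axis) for 4947 genes; dotted lines mark 2-fold and named genes are in red. Most genes lie between -0.36 and 0.36, with 4 above the upper line and 9 below the lower one.

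Among gene groups, those with at least 20 UMIs in the members and matched cells together are counted. Of all 9809 genes past that minimum, 0.551% were at least 2-fold higher and 1.56% at least 2-fold lower, with a median log2 ratio of -0.0063, and the lists are read beside these values. The wider dendritic list gave 12 such genes of 16, 1 at least 2-fold higher and 1 lower, with a median of 0.10. The higher was Bcl11a (1.93; 14 against 7 UMIs), with lane 1 at 10.9 against 1.119 CPM and lane 2 at 1.67 against 1.69 CPM. The lower was Cd24a (-1.07; 4 against 31 UMIs). Itgax, the integrin CD11c, was at 132 against 149 CPM. None of the 6 genes of type 1 dendritic cells passed 2-fold (median 0.08), nor did any of 7 of type 2 (median 0.17). Of the latter, Mgl2 and Clec10a, a pair of galactose-binding lectins, were higher by 0.39 and 0.42. Mgl2 was found in 81.0% of members and 68.3% of matched cells, and after thinning in 116 of 232 members and 38.1% of matched cells.

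Of the genes of mature, migrating dendritic cells 8 were counted, 3 of them at least 2-fold lower and none higher, with a median of -0.44. That median was 0.0051 for members with at least 2 Cd209a UMIs and -0.059 among cells with Ccr2 at 0. They were Ccl22 (-2.03; 2 against 41 UMIs), Ccl5 and Il4i1 (-1.13; 7 against 52 UMIs). Ccl17 was under the count minimum, with 11 UMIs in 4 members, 8 of them in cell A, and 6 UMIs in matched cells. The MHC class II genes were level, with 10 counted, none past 2-fold and a median of 0.06. Both groups had been sorted as MHCII+, so their protein was selected in members and matched cells alike. H2-Ab1 stood at 14176 against 13905 CPM and Cd74, the invariant chain, at 22911 against 22940 CPM. Of 8 costimulatory genes 1 was at least 2-fold higher, Tnfsf9 (4-1BB ligand; 1.54 on 17 against 14 UMIs), and the median was -0.20. Cd86 stood at 142 against 163 CPM.

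The 14 wider macrophage genes had a median of -0.02 and none passed 2-fold. Apoe stood at 24317 against 23410.1 CPM, the growth factor receptor gene Csf1r at 911 against 986 CPM, and Cd63, a lysosomal membrane protein, at 165 against 259 CPM (-0.65; lanes -0.42 and -0.98). The 8 genes linked to resident macrophages all lay below 0, with a median of -0.84 and 3 at least 2-fold lower. These were Cbr2 (-2.45; 6 against 122 UMIs), Folr2 (-1.49; 8 against 77) and Lyve1 (-1.34; 7 against 61). Timd4, the phosphatidylserine receptor of long-lived gut macrophages, had a log2 ratio of -0.72 (lanes -1.17 and -0.15), and the resident marker Cd4 was at 98.8 against 104 CPM. The list's median was -1.24 in lane 1 and -0.17 in lane 2, so most of the size came from the first lane. By cell the groups were alike: 68.6% of members and 66.9% of matched cells held a UMI of the list. The summed list had a median of 212 CPM per cell in members and 200 CPM in matched cells. Its highest level in a cell was 1784 CPM in members and 6429 CPM in matched cells.

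Of the monocyte-linked list 10 of 14 genes were counted, 1 at least 2-fold higher and 2 lower, with a median of 0.09. Ccr2, the receptor that brings monocytes into tissue, was at 349 CPM (323 to 378) in members and 233 CPM (219.97 to 246) in matched cells. Its lanes gave 381 against 254 CPM and 286 against 190 CPM, so the difference of 0.58 was alike in both. Ccr2 was found in 52.1% of members and 37.9% of matched cells, and in 31.5% and 23.6% after thinning. Lsp1, a leukocyte actin-binding protein, was higher by 0.68 but with lanes of opposite sign, at 67.9 against 31.9 CPM and 21.7 against 33.2 CPM. Ly6c2, whose protein was gated out in the sort, gave 0 UMIs in members and 22 in matched cells, at least 2.46-fold lower against a floor of 3 UMIs over the members. The other genes past 2-fold were Itgb7 (higher) and Ly6a (lower).

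The C-type lectin list, of which 21 of 22 genes matched, gave 15 counted genes with 3 at least 2-fold higher and 1 lower (median 0.09). All 3 were neighbours of Cd209a on chromosome 8: Cd209b, Cd209e (1.25; 20 UMIs in 18 members against 22 in 21 matched cells) and Cd209d (1.11; 10 against 11 UMIs). The rest of the family had few UMIs: Cd209f gave 3 in members and 16 in matched cells, Cd209c 2 and 3, and Cd209g 0 and 5. Cd209b, Cd209e and Cd209d were each higher in both lanes, Cd209e at 10.9 against 3.36 CPM and 11.7 against 5.63 CPM, and Cd209d at 5.03 against 1.68 CPM and 6.68 against 2.82 CPM. The lower gene was Clec4d (-1.10; 2 against 19 UMIs), while the mannose receptor Mrc1 was at 393 against 366 CPM. Of the 10 dissociation stress genes none passed 2-fold (median 0.10; Fos 1855 against 1712 CPM), nor did any of 8 cycling genes (median 0.12; Stmn1 63.1 against 55.5 CPM).

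Markers of other cells were looked for in the same way, and their part in the differences above was not tested. All 5 matched plasma cell genes lay below 0 (median -0.75, 2 at least 2-fold lower). Their sum was 515 CPM in members, 98.04 CPM without the member with the most Jchain, and 1833 CPM in matched cells. The last value keeps the 5 matched cells of the plasma cell-like cluster. All 4 haemoglobin genes were lower (12.8 against 2899.7 CPM in sum). Of the epithelial list 10 of 14 genes were counted (1 higher, Lyz1; median 0.25), with sums of 201 against 137 CPM and none of Krt18 or Muc2 in members. The T cell and innate lymphoid list summed to 15.1 against 21.7 CPM with Cd3e and Cd3g at 0 in members, and the B cell list to 45.2 against 49.3 CPM with Ms4a1 at 0. The plasmacytoid dendritic list (227 against 323 CPM, nearly all Bst2), neutrophil list (30.1 against 31.4 CPM, S100a8 and S100a9 at 0), eosinophil list (5.58 against 4.11 CPM), mast cell list (1 against 3 UMIs), fibroblast list (6.14 against 11.2 CPM) and endothelial list (61.9 against 65.8 CPM; Lyve1, also a resident macrophage gene, lower) held no other gene past 2-fold.

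When the wild-type cells were clustered with Cd209a and Plac8 removed, the members were spread over 9 of 10 clusters. No cluster held more than 50 of the 242. Cluster 0, led by Ccl17, S100a6, Lsp1 and Ccr2, held 18.2% of members (13.5 to 23.6%), 11.8% of comparison cells (10.4 to 13.3%) and 54.2% of cells with both Cd209a and Plac8. Cluster 2, led by Cd163, Cbr2, F13a1 and Folr2, held 20.7%, 24.2% and 4.52%, and cluster 1, led by H2-M2, Ccl24 and Wnt4, held 19.0%, 23.8% and 13.5%. Cluster 3, led by BC005537 and the heat-shock gene Hspa1b, held 19.4% of members and 14.8% of comparison cells, cluster 4, led by Klrb1b and Lyz1, 13.2% and 12.3%, and cluster 5, led by Thbs1 and Pgf, 5.37% and 8.77%. Cluster 6, led by histone and mitosis genes, held 5 members, cluster 7, led by the interferon-induced genes Rsad2 and Ifit1, 4, the plasma cell-like cluster 9 held 1, and cluster 8, led by haemoglobin and epithelial genes, none. The comparison cells in these shares were not matched on depth, and the cluster led by Ccl17 was deep (median 8570 UMIs).

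**Figure D4:**
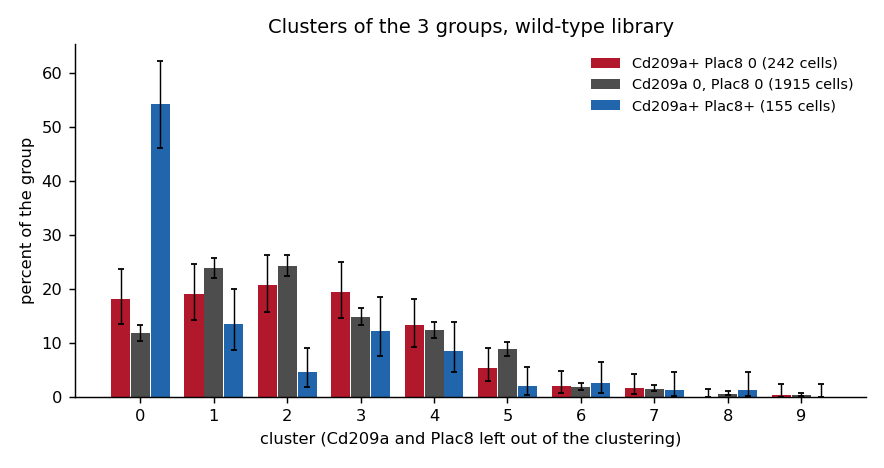
Share of members, comparison cells and cells with both Cd209a and Plac8 (vertical axis, percent of the group) in each of the 10 wild-type clusters, numbered 0 to 9, with exact binomial 95% intervals. Members are found in clusters 0 to 7 and 9, with 18.2% in cluster 0, led by Ccl17, Lsp1 and Ccr2, against 11.8% of comparison cells, and the cells with both genes have 54.2% there.

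Within clusters 0 to 4, C1qa was nearly level. Members and comparison cells stood at 4271 and 4288 CPM in the cluster led by Ccl17, at 6594 and 6335 CPM in that led by H2-M2, at 5689 and 5916 CPM in that led by Cd163, at 3235 and 3255 CPM in that led by BC005537, and at 6932 and 6839.7 CPM in that led by Klrb1b. In cluster 5, led by Thbs1, members were higher, at 4918 against 3971 CPM over 13 members. The C1qa level of members ran from 3235 to 6932 CPM over clusters 0 to 5. Cd209b was higher in members in each of the 6 clusters with over 10 members, as at 29.7 against 4.03 CPM in the cluster led by Ccl17, 119 against 60.9 CPM in that led by H2-M2 and 48.4 against 11.01 CPM in that led by Cd163. Dpp4 was higher in members in 4 of these 6, as at 52.0 against 31.1 CPM in the cluster led by Ccl17, and lower in the other two, at 21.9 against 31.3 CPM in the cluster led by BC005537 and 33.6 against 42.9 CPM in that led by Klrb1b.

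The members were also split by their C1q level. Cut at 84.0 and 153 C1q UMIs per 10000 into ranges of like size, with 68 members within 10% of a limit, they had median depths of 4732, 7283 and 8494 UMIs from low to high. Of the matched cells 25.1%, 36.5% and 38.4% fell in these ranges. Ccr2 was at 448, 443 and 204 CPM from low to high C1q, and Lsp1 at 131, 44.4 and 9.85 CPM. Flt3 gave 3, 3 and 0 UMIs. Along the same ranges Apoe was at 9992, 21387 and 36015 CPM, the macrophage gene Ms4a7 at 884, 1003 and 1574 CPM, Fcgr1 at 117, 181 and 298 CPM and Cd74 at 13532, 20959.9 and 30599.9 CPM. Adgre1 showed no such order (406, 451 and 408 CPM). Dpp4, the dendritic gene with counts, was at 35.5, 41.2 and 53.5 CPM on 16, 26 and 38 UMIs. Its intervals overlapped (20.3 to 57.6, 26.9 to 60.4 and 37.9 to 73.4 CPM), so no order can be read. Depth moved with these ranges, and its part was not tested.

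The number of Cd209a UMIs gave a different picture (170, 41 and 31 cells with 1, 2 and 3 or more; median depths 6497, 7535 and 8543 UMIs). C1qa was at 4980 CPM with 1 Cd209a UMI, 6135 CPM with 2 and 4994 CPM with 3 or more, so it did not follow Cd209a. Other macrophage genes differed from each other. Csf1r was at 974, 953 and 602 CPM and Ms4a7 at 1240, 1335 and 878 CPM, both lowest at 3 or more. Apoe was at 22802, 27769 and 26897 CPM and Fcgr1 at 199, 233 and 241 CPM, both lowest at 1. Itgax, of the wider dendritic list, was at 151 CPM (129 to 174), 108 CPM and 77.9 CPM (48.8 to 118). Mgl2 was at 320.3 CPM (289 to 354), 453 CPM (381 to 533) and 591 CPM (505 to 688), so that the lowest range stood apart from the others. Dpp4 was at 35.96, 51.0 and 74.3 CPM on 43, 16 and 21 UMIs, and neighbouring intervals overlapped, as did those of the ends (26.03 to 48.4 and 46.0 to 114). Cd209b was at 47.7, 57.4 and 81.4 CPM with overlapping intervals, and the last value rests on 23 UMIs in 6 cells. Cd163, a scavenger receptor of resident macrophages, was at 36.8, 19.1 and 10.6 CPM on 44, 6 and 3 UMIs, with overlapping intervals. Cd4 was at 113 CPM (94.7 to 134) with 1 Cd209a UMI and 42.5 CPM (21.9 to 74.2) with 3 or more. Timd4 gave no UMI in the 31 cells with 3 or more Cd209a UMIs and was at 29.3 and 35.1 CPM below. Ccr2 was at 330, 242 and 552 CPM and Lsp1 at 32.6, 12.7 and 180 CPM, of whose 51 UMIs in the top range 22 were in 1 cell. In the same range Napsa, an aspartic protease of dendritic cells and monocytes, was at 56.6 CPM in 8 cells, against 7.53 and 12.7 CPM.

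**Figure D5:**
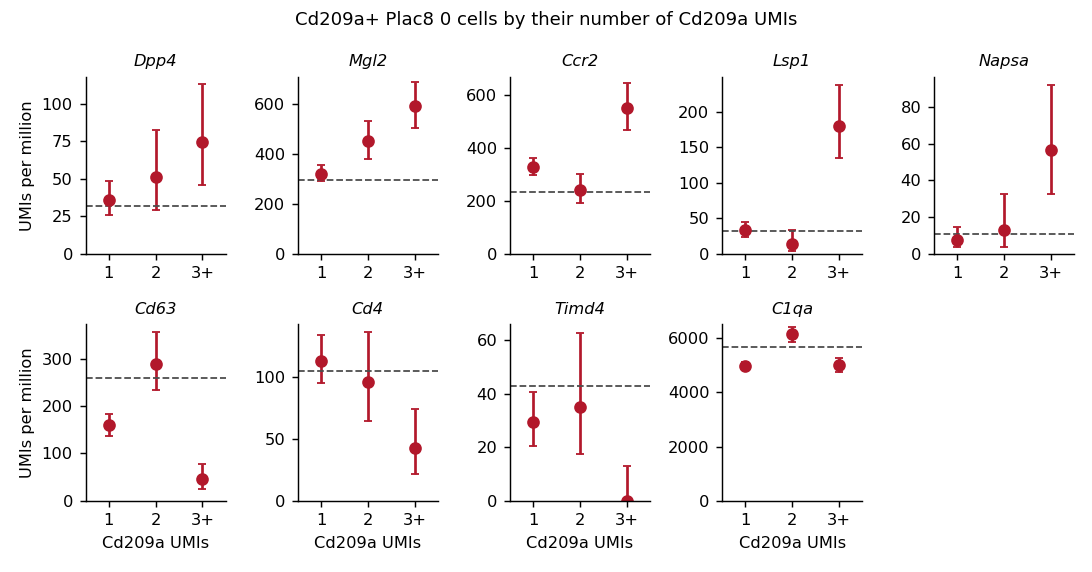
CPM (vertical axes, each from 0) of 9 genes in members with 1, 2, or 3 or more Cd209a UMIs (horizontal axes), with exact Poisson 95% intervals and the level of the matched cells as a dashed line. Dpp4 and Mgl2 are highest at 3 or more Cd209a UMIs, Cd4 and Timd4 are lowest there, and C1qa shows no order.

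The 155 cells with both Cd209a and Plac8 stood further from the macrophage genes than the members did. C1qa was at 3771 CPM in them (members higher by 0.46, interval 0.41 to 0.51) and Adgre1 at 290 CPM (0.54, 0.37 to 0.72), while Fcgr1 was at 187 CPM (0.18, -0.05 to 0.41). Lsp1, Clec10a and Ccr2 were lower in members than in these cells, with log2 ratios of -2.14, -1.30 and -0.74. Dpp4 was at 62.2 CPM in cells with both genes, against 44.6 CPM in members (-0.48). Flt3 gave 11 UMIs in 10 of them (7.77 CPM), with an interval for the ratio to members of -2.93 to 0.35, which includes 0. Mgl2, by contrast, was at nearly the same level (0.04).

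In the CCR2-/- library 25 of 2612 cells met the same rule (0.957%, 0.620 to 1.41%). Its cells were shallower, with a median of 2439 UMIs against 6129. After every cell was thinned to 2000 UMIs, which left out 148 wild-type and 1017 CCR2-/- cells, the rule held for 111 of 2868 wild-type cells (3.87%, 3.19 to 4.64%) and 16 of 1595 CCR2-/- cells (1.003%, 0.574 to 1.62%). The intervals stayed apart. The 25 cells had C1qa at 2136 CPM against 3118 CPM in 75 depth-matched CCR2-/- cells without Cd209a and Plac8, Fcgr1 at 132 against 125 CPM and Adgre1 at 314 against 442 CPM. Dpp4 gave 5 UMIs against 9, and Flt3, Zbtb46 and Ccr7 gave none in either group. A count of 0 in 25 cells allows up to 12% of them to hold a UMI.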

How the data were processed

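The data are deposited count matrices of UMIs per gene and cell for 2 libraries, of 20766579 UMIs in 3054 wild-type and 7506405 in 2774 CCR2-/- cells. Per the submitters' processing notes, Cell Ranger 3.0.1 and the mm10 build were used. The role of each, the annotation and the cell calling are not given in the sources used here. The counts are whole numbers and are not normalized, per the deposited files.

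The members and gene lists were chosen with earlier results of these data known. Cells had to show 200 genes or more and a mitochondrial share of 10% or less, and doublets stayed in. For each member 3 cells of the same lane, nearest in total UMIs, were matched without replacement. Counts were summed over cells and scaled to counts per 1000000 UMIs (CPM), and genes with a mean of at least 20 were compared with a pseudocount of 1. A difference counted from 2-fold. Intervals are at 95% (Poisson, Clopper-Pearson and conditional binomial), and a count of 0 was read against a floor of 3. Named were the rule genes, the 10 highest and 10 lowest ratios with 1 sign in both lanes, up to 4 genes of each list, and any other gene past 2-fold. A few more were chosen after their values were seen: the values of named genes in single cells and ranges, Cd63, Napsa, Mzb1 and the haemoglobin genes. The wild-type cells were clustered with scanpy 1.11.5 and leidenalg 0.10.2 (2000 variable genes, 30 components, 15 neighbours, resolution 0.8), with python 3.11.15. Clusters are named by their leading genes. The matching and ratio steps were tested on simulated data. Of the 27998 gene identifiers 98.7% were found in the GENCODE annotation of mm10.

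Alternatives changed the matching, depth, rule, cell filter, doublets, lane, pseudocount, scaling and gene minimum. Leaving out clusters 8 and 9 (the mixed and the plasma cell-like cluster) taking members with exactly 1 Cd209a UMI and leaving out the member with the most Jchain were added after seeing the data.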

Additional observations from a re-analysis of the deposited data

How the results depend on the processing

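Of the values of the main results under other settings, 47 stayed within their interval or within 1.5 times the count and 29 moved. Of those of lists and named genes, 540 stayed, 120 moved and 7 reversed. The causes were not tested.

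The 4 genes at least 2-fold higher, of 4947 compared, became 14 of 4934 with Ccr2-zero cells alone. They became 44 of 4857 with at least 2 Cd209a UMIs and 2 of 4944 with exactly 1. Lane 1 gave 10 of 5010, lane 2 gave 31 of 4747 and matching within cluster gave 8 of 4942. A minimum of 50 CPM gave 1 of 2457 and no minimum 183 of 27996. A pseudocount of 10 CPM gave 2 of 4947 and thinning to 2000 UMIs 20 of 5052. The 9 lower genes of 4947 became 28 of 4934 with Ccr2-zero cells alone. They became 53 of 4857 with at least 2 Cd209a UMIs and 4 of 4944 with exactly 1. Lane 2 gave 37 of 4747, no minimum 342 of 27996 and thinning 55 of 5052. Leaving out the mixed and plasma cell-like clusters gave 3 of 4936.

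The wild-type share was 6.86% of the 1692 cells with Ccr2 at 0 (116 members), 2.39% with at least 2 Cd209a UMIs, 5.64% with exactly 1 and 3.87% after thinning, and the CCR2-/- share was 0.153% with at least 2 Cd209a UMIs. The dendritic sum reached a log2 ratio of 1.28 with at least 2 Cd209a UMIs. Its interval included 0 with 1 matched cell (0.30, -0.18 to 0.77), Ccr2 at 0 (0.28, -0.32 to 0.85), exactly 1 Cd209a UMI (0.21, -0.31 to 0.70), lane 2 (0.23, -0.57 to 0.99) and thinning (0.45, -0.24 to 1.09). The macrophage sum was -0.042 unmatched and -0.15 with exactly 1 Cd209a UMI. Its interval included 0 with Ccr2 at 0 (-0.018, -0.063 to 0.026), at least 2 Cd209a UMIs (-0.044, -0.097 to 0.0098), matching within cluster (-0.038, -0.077 to 0.00071) and thinning (-0.0027, -0.062 to 0.056).

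With Ccr2 at 0 Flt3 gave no UMI in members, and its value there (-0.51) is set by the pseudocount and is no fold. Ly6a reversed when matched within cluster (0.059), and Hbb-bt with 1 matched cell per member (1.05), the stricter cell filter (0.79), exactly 1 Cd209a UMI (1.46), matching within cluster (0.26) and without the 2 clusters (0.61). Over the settings tried Cd209b ran from 0.71 to 1.80, Ccr2 from 0.44 to 0.63, Mgl2 from 0.18 to 0.69, Dpp4 from 0.15 to 1.24, Timp2 from -2.30 to -1.08, Clec10a from -0.66 to 0.57, Jchain from -5.88 to -0.56, the mature dendritic median from -0.52 to 0.0051, the resident macrophage median from -1.55 to -0.06 and the monocyte-linked median from -0.37 to 1.06. No paired analysis was possible because the labels give 1 library per genotype and no replicate numbers. Flt3, Zbtb46 and Ccr7 gave 6 UMIs or fewer in members, which limits what can be read from them. Whether depth set these low counts was not tested.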
